A study of Rattus norvegicus with 4 samples.

Results

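Cells remove reactive molecules through a small set of enzyme families, and 82 probe sets of 47 such genes were followed here in 2 rat prostate tumour lines. The members are all probe sets with a single annotated gene whose symbol starts with Gst, Mgst, Gpx, Prdx, Sod or Aldh, together with those for Gclc, Gclm, Gss, Gsr, Cat, Txnrd1, Txnrd2, Nqo1 and Ephx1. They are 82 of the 8799 probe sets of the array and 82 of the 7018 that have 1 gene symbol, and the 47 genes are among 4737 that such probe sets measure. Thioredoxin itself was not among the single-gene probe sets and was not analysed here.

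The arrays were 2 of the Mat-Lylu line, described by the submitters as highly metastatic, and 2 of the G line, described as non-metastatic and used as the control. Both are sublines of the Dunning R3327 rat prostatic tumour, the samples carry no treatment or engineered allele in their labels, and no age or passage is given. Each line stands alone for its metastatic class, so the line and the class cannot be told apart. Total RNA was labelled with biotin and hybridised to oligonucleotide arrays, and every value below is a probe set signal in the deposited linear units. The arrays of a line are called duplicates without mention of separate cultures, and the p-values therefore reflect only array-to-array spread, part or all of which may be technical.

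Glutathione is a tripeptide thiol made by glutamate-cysteine ligase and glutathione synthetase and kept in its reduced form by glutathione reductase. Glutathione transferases attach it to electrophilic compounds, and glutathione peroxidases use it to reduce peroxides. Most peroxiredoxins reduce peroxides with thioredoxin. Superoxide dismutases and catalase deal with superoxide and hydrogen peroxide directly, and aldehyde dehydrogenases oxidise reactive aldehydes to acids. Many of these genes are known targets of the transcription factor encoded by Nfe2l2, and the pi class transferase is known for its loss in human prostate cancer.

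Array medians ran from 2998 to 3015 signal units in Mat-Lylu and from 3049 to 3156 in G. The SD of the log2 difference over tested probe sets was 0.17 between the Mat-Lylu arrays and 0.18 between the G arrays, and 0.75 to 0.76 for any Mat-Lylu array set against any G array. The background level of an array, taken as the 95th percentile of 23 control probe sets for bacterial, yeast and mouse transcripts, was 1891 and 2311 in Mat-Lylu, against 1973 and 2143 in G. The highest signal of G replicate 1 was 64036, while that of the other 3 arrays lay between 45582 and 47120. No member came within 5% of the highest signal of the array it was read on. On G replicate 1, Sod1 (M21060_s_at) read 48666, above the highest signal of each of the other 3 arrays. Of 8 measured markers of prostate or simple epithelium, 2 in Mat-Lylu (Krt8 and Krt5) and 1 in G (Krt5) were above background on both arrays of the line, and Epcam, Pbsn, Msmb, Krt14 and Krt19 were under it on all 4 arrays. Of 8 fibroblast markers, 2 were above background in Mat-Lylu and all 8 in G, with summed signals of 12470 and 12282 in Mat-Lylu, against 150754 and 152814 in G. For leukocyte markers 4 of 6 genes were above background in each line, and the summed signals were 18038 and 18925 in Mat-Lylu, against 19116 and 18712 in G. So were 3 of 4 liver markers and 3 of 5 skeletal muscle markers in each line. A signal above this level therefore does not by itself show that a cell type is present. The part of these marker differences in the results below was not tested, and in bulk RNA fewer expressing cells and less RNA per cell cannot be told apart.

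The detoxification genes did not move together. Members higher in Mat-Lylu and members lower in Mat-Lylu stood side by side among the mu class and microsomal transferases, the glutathione peroxidases, the peroxiredoxins, the superoxide dismutases and the aldehyde dehydrogenases. Aldh3a1, an aldehyde dehydrogenase, had 5.75 times the signal in Mat-Lylu, the microsomal transferase Mgst2 4.38 times, the extracellular superoxide dismutase Sod3 3.35 to 3.78 times and the quinone reductase Nqo1 2.14 to 2.57 times. Lower in Mat-Lylu were the alpha class transferase Gsta1 at 2.60-fold to 2.68-fold, the mu class transferase Gstm5 at 2.13-fold to 2.25-fold and the glutathione peroxidase Gpx1 at 1.78-fold to 2.09-fold. Folds are ratios of geometric means of signal + 16, and tests were made on log2(signal + 16) with limma over all 6555 rat probe sets that passed a filter on low mean signal, with Benjamini-Hochberg adjustment over all of them and a threshold of 0.05.

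Of the 82 probe sets, 74 of 46 genes passed the filter. The other 8 were under the background level on all 4 arrays, and they included the only probe set of Gpx6. Among the 74 tested, 16 probe sets of 10 genes were higher in Mat-Lylu, 23 of 17 genes were lower and 35 did not pass. Both directions together make 52.7% of the tested members, against 34.1% of all tested probe sets. The share higher was 21.6%, against 13.9% of all tested probe sets, and the share lower was 31.1%, against 20.3%. These gaps depend on scaling. Quantile normalization left members at 16 higher and 23 lower but gave 1139 and 1181 over all tested probe sets, against 908 and 1330. There the gap in the share higher was narrower and that in the share lower wider. Tested members were also brighter, with a median mean signal of 7258, against 4415 over all tested probe sets, and the part of brightness in these shares was not tested. At 2-fold or more, 7 member probe sets of 5 genes were higher (9.46% of tested members, against 3.86% of all tested probe sets). Lower by as much were 6 of 3 genes (8.11%, against 5.08%), and the part of brightness was again not tested.

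The median log2 difference was -0.14 over tested members and -0.03 over all tested probe sets. Mat-Lylu and G arrays did not overlap for 59 of the 74 tested members (79.7%), against 67.7% of all tested probe sets, and these included all 39 called members. No gene had calls in both directions. Of 23 genes with 2 or more tested probe sets, 16 had the same outcome on every one, counting genes where none passed. In the other 7 some probe sets passed in 1 direction and the rest did not pass. Several of these genes were read by probe sets built on the same sequence entry, so the count is not one of independent readings. The share over all genes of the array was not computed. Of the 82 member probe sets, 24 end in _s or _f, which marks probes shared with related transcripts, and 16 of the 39 called ones do.

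**Figure D1:**
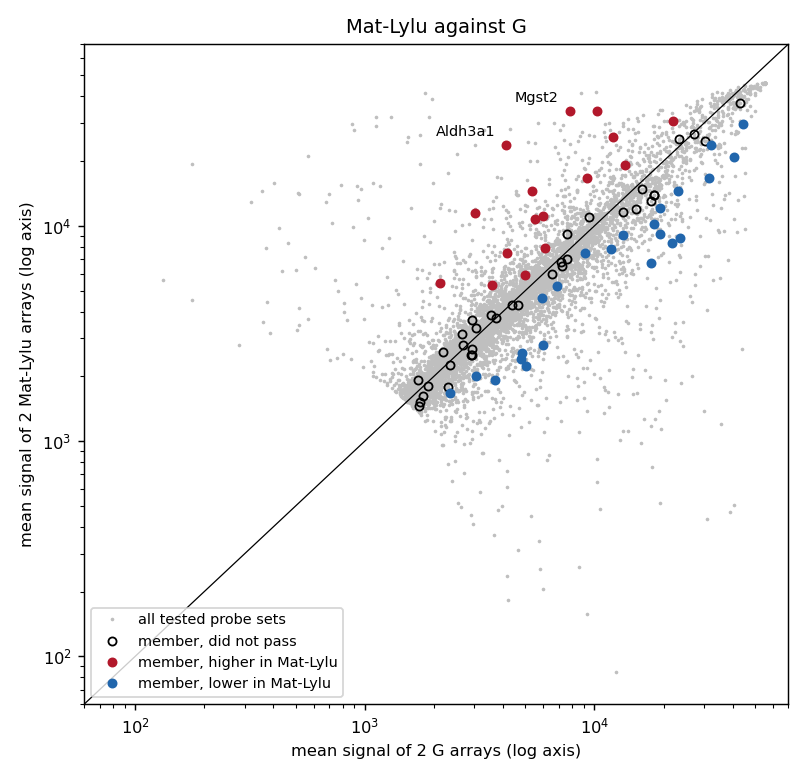
Mean signal of the 2 Mat-Lylu arrays (vertical, log axis) against the mean signal of the 2 G arrays (horizontal, log axis) for the 6555 tested probe sets (grey) and the 74 tested members, coloured by the outcome of the limma test; the line marks equal signals. Members lie on both sides of the line, 16 of them higher and 23 lower in Mat-Lylu.

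**Figure D2:**
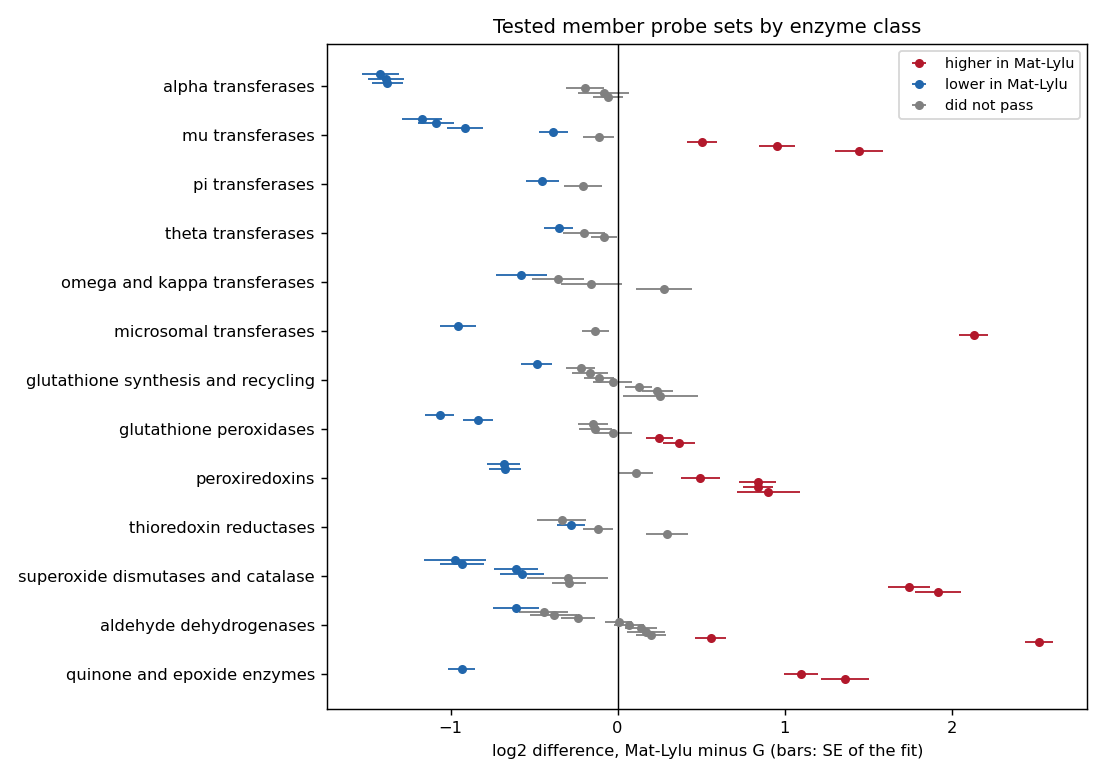
Log2 difference (Mat-Lylu minus G) of each tested member probe set, by enzyme class, with the SE of the limma fit as bars. The largest rises are Aldh3a1 at 2.52 and Mgst2 at 2.13, and the lowest values are the 3 probe sets of Gsta1.

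The Gst genes encode soluble glutathione transferases, cytosolic except for the kappa class, which conjugate glutathione to drugs, lipid peroxidation products and other electrophiles. Their 25 probe sets of 12 genes gave 23 tested, of which 3 were higher (all Gstm1), 10 of 7 genes were lower and 10 did not pass, with a median log2 difference of -0.21.

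In the alpha class, which also reduces lipid hydroperoxides, Gsta1 was lower in Mat-Lylu on each of its 3 probe sets. The probe set S72505_f_at read 9312 and 8214 in Mat-Lylu, against 21933 and 25048 in G. The probe set K01932_f_at read 6958 and 6468 in Mat-Lylu, against 19205 and 16084 in G, and X78848cds_f_at read 8756 and 7947 in Mat-Lylu, against 22032 and 21427 in G. On all 3 the highest Mat-Lylu array lay under the lowest G array, and the folds were 2.62, 2.68 and 2.60 (log2 differences -1.39, -1.42 and -1.38, SE 0.09 to 0.11, adjusted p from 1.7e-05 to 4.0e-05). All 3 end in _f and can match other alpha class transcripts, so they are not independent readings of Gsta1. Gsta3 had 1 tested probe set close to background (log2 difference -0.08, SE 0.15, adjusted p = 0.72) and 2 untested under it. Gsta4, which in mammals handles the lipid aldehyde hydroxynonenal, did not pass on either probe set, with log2 differences of -0.06 and -0.20.

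The mu class was split, with Gstm1 higher and Gstm5, Gstm7 and 1 probe set of Gstm2 lower. Of the 8 mu probe sets, 6 end in _s, all but those of Gstm5, and can match other mu class transcripts. Gstm1 is a mu class enzyme abundant in rat liver. Its probe set X04229cds_s_at read 13885 and 15021 in Mat-Lylu, against 6166 and 4530 in G, a 2.73-fold difference (log2 difference 1.45, SE 0.14, adjusted p = 1.4e-04). The other Gstm1 probe sets differed less. H32189_s_at read 11849 and 9682 in Mat-Lylu, against 5593 and 5448 in G (1.94-fold, log2 difference 0.95, SE 0.11, adjusted p = 3.3e-04). J02810mRNA_s_at read 19381 and 19098 in Mat-Lylu, against 13689 and 13389 in G (1.42-fold, log2 difference 0.51, SE 0.09, adjusted p = 0.0030). On each the lines did not overlap.

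Gstm5 went the other way. Its probe set U86635_at read 2969 and 2630 in Mat-Lylu, against 6454 and 5501 in G, 2.13-fold lower in Mat-Lylu (log2 difference -1.09, SE 0.11, adjusted p = 1.4e-04). The overlapping probe set U86635_g_at read 2335 and 2109 in Mat-Lylu, against 5578 and 4513 in G (2.25-fold lower, log2 difference -1.17, SE 0.12, adjusted p = 1.5e-04), and 1 Mat-Lylu array lay under background. The 2 Gstm2 probe sets disagreed in size: J03914cds_s_at read 2430 and 2690 in Mat-Lylu, against 5249 and 4439 in G (log2 difference -0.91, SE 0.11, adjusted p = 3.7e-04), while the brighter J02592_s_at read 14856 and 14862 in Mat-Lylu, against 16802 and 15347 in G, and missed the threshold (a log2 difference of -0.11, adjusted p = 0.41). Gstm7 read 5522 and 5044 in Mat-Lylu, against 7062 and 6736 in G (log2 difference -0.39, SE 0.09, adjusted p = 0.011), a call that was lost without Mat-Lylu replicate 1 (adjusted p = 0.078).

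Because the mu genes moved apart, the promoter windows of Gstm1, Gstm5 and Gstm7 are shown with those of Gsta1, the member furthest below G, and Nqo1, a known Nfe2l2 target. They come from RefSeq on the GRCr8 build and run from 250 bases before to 50 bases after the gene start, written 5′ to 3′ on the gene's strand. Capitals mark matches to TGACNNNGC, the core of the antioxidant response element that Nfe2l2 factors bind, searched on both strands. The windows lie at chr2:198343334-198343633 (minus strand) for Gstm1, chr2:198219519-198219818 (plus strand) for Gstm5, chr2:198260270-198260569 (minus strand) for Gstm7, chr9:31216483-31216782 (minus strand) for Gsta1 and chr19:52220218-52220517 (minus strand) for Nqo1.
Gstm1: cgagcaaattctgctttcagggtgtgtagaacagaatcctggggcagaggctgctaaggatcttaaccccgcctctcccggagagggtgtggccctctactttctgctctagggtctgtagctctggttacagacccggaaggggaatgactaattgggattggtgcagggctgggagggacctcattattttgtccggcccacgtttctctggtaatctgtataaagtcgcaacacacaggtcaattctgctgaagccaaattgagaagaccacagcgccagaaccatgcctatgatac
Gstm5: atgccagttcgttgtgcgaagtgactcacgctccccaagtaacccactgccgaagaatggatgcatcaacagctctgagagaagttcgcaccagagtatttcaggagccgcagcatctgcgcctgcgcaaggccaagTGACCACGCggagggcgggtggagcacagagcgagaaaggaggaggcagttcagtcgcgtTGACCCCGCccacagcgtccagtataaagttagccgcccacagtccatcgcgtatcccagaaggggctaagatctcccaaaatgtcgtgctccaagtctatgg
Gstm7: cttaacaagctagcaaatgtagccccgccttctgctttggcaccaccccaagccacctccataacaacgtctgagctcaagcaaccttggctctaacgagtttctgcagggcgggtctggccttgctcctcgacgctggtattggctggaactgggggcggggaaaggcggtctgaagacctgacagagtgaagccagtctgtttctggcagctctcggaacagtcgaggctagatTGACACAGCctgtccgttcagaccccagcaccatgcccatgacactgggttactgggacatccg
Gsta1: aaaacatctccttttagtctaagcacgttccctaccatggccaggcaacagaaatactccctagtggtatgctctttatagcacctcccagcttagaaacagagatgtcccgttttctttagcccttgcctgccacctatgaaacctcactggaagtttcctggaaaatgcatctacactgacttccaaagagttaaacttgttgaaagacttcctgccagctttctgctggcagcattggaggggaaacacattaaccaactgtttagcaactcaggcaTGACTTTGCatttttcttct
Nqo1: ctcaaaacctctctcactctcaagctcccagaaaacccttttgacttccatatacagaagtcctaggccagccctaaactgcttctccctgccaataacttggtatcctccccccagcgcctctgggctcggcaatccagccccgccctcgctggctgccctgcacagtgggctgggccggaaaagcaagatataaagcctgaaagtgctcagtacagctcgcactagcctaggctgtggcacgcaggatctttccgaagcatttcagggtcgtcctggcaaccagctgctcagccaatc
Gstm5 held 2 matches and Gstm7 and Gsta1 1 each, while these letters were not in the windows shown for Gstm1 and Nqo1, which says nothing of sequence further away. They were also not in the window of Gstm2, the remaining mu gene, which was lower on 1 of its 2 probe sets. Whether matches go with direction was not tested. Windows were found for 39 of the 47 member genes. A match stood in 12 of the 39 genes (30.8%), against 13.1% of all 27457 genes with a window. By outcome, among genes with a window, it stood in 0 of 6 that were higher in Mat-Lylu. It stood in 7 of 15 that were lower and 5 of 17 that did not pass. Of the 10 higher genes, Aldh3a1, Mgst2, Sod3 and Prdx6 had no window. These include the largest rises, so the count for higher genes leaves them out. The related motif TGANTCA stood in 6 of the 39 genes (15.4%), against 8.04% of all genes, and overlapped a TGACNNNGC match in 3. A match describes letters in a short window and is no evidence of binding.

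Among the pi, theta, omega and kappa classes every called probe set was lower in Mat-Lylu, by 1.49-fold at most. Gstp1, the pi class enzyme, was one of the brightest members in both lines. Its probe set rc_AI012589_s_at read 37842 and 37005 in Mat-Lylu, against 40692 and 45840 in G, without overlap, and missed the threshold (log2 difference -0.21, SE 0.12, adjusted p = 0.22). The second, X02904cds_s_at, read 23675 and 23589 in Mat-Lylu, against 33337 and 31264 in G (1.37-fold lower, log2 difference -0.45, SE 0.10, adjusted p = 0.010). Its call was lost without either Mat-Lylu replicate, while the log2 difference stayed at -0.45 without replicate 0 and without replicate 1. Gstp1 was far above background in both lines.

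Gstt1, a theta class enzyme, read 4493 and 4784 in Mat-Lylu, against 6165 and 5687 in G (log2 difference -0.35, SE 0.09, adjusted p = 0.016), a call lost without Mat-Lylu replicate 0 (0.087) or G replicate 0 (0.066). Gstt2, the brightest of this class, read, on D10026_s_at, 6781 and 6769 in Mat-Lylu, against 7087 and 7243 in G (log2 difference -0.08) and missed the threshold.

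Gstk1, a kappa class enzyme of mitochondria and peroxisomes, read, on S83436_i_at, 10523 and 7541 in Mat-Lylu, against 12727 and 13890 in G (log2 difference -0.58, SE 0.15, adjusted p = 0.021). Without Mat-Lylu replicate 1 its log2 difference was -0.34 (adjusted p = 0.12), and the call was also lost without G replicate 1 (0.061) and with quantile normalization (0.067). The second Gstk1 probe set, both probe sets of Gstt2 and both of Gsto1 did not pass, with log2 differences from -0.36 to 0.28. Gsto1, an omega class enzyme with reductase activity, read 14467 and 13407 in Mat-Lylu, against 21163 and 15052 in G on its brighter probe set, where the 2 G arrays differed by more than the means of the lines.

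The microsomal transferases are membrane proteins unrelated in sequence to the cytosolic ones, and 1 of their 3 genes was higher in Mat-Lylu, 1 lower and 1 did not pass. Mgst2, which can also make leukotrienes, read 33946 and 34668 in Mat-Lylu, against 7902 and 7730 in G, a 4.38-fold rise (log2 difference 2.13, SE 0.09, adjusted p = 1.1e-06). Mgst1, an abundant enzyme of the endoplasmic reticulum and outer mitochondrial membrane, read 21260 and 20622 in Mat-Lylu, against 38416 and 43026 in G, 1.94-fold lower (log2 difference -0.96, SE 0.11, adjusted p = 3.0e-04). Mgst3 read 6059 and 5915 in Mat-Lylu, against 6667 and 6464 in G, and missed the threshold (log2 difference -0.13). For Mgst2 and Mgst1 the 2 arrays of a line lay close together and far from those of the other line.

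**Figure D3:**
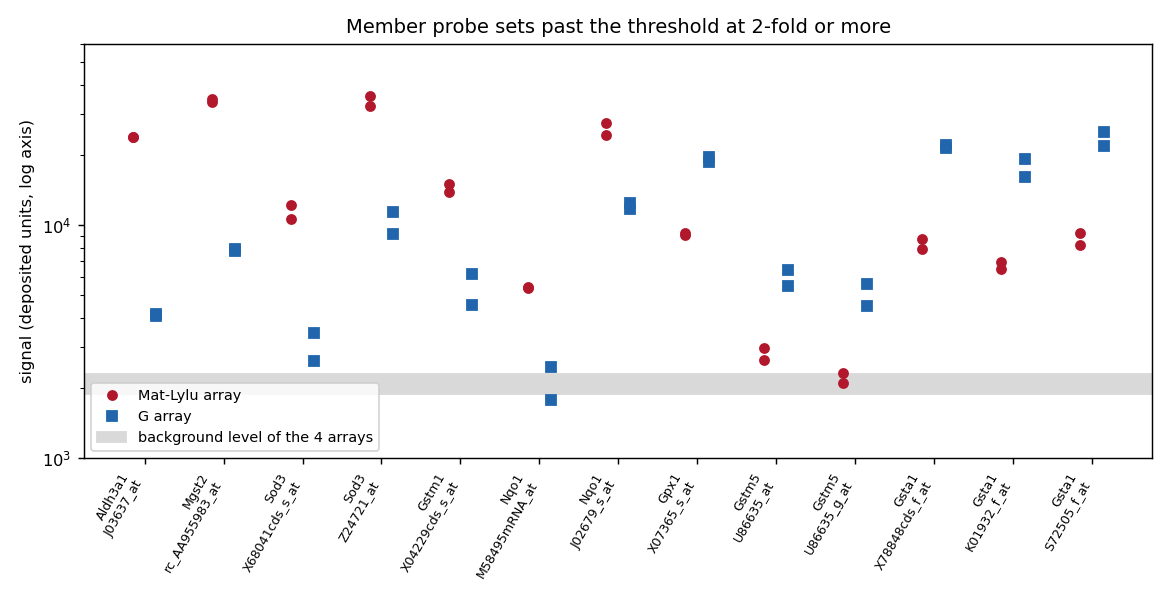
Signal on each array (log axis) for the 13 member probe sets past the threshold at 2-fold or more, with Mat-Lylu arrays as circles and G arrays as squares; the grey band spans the background levels of the 4 arrays, 1891 to 2311. The 2 arrays of a line sit close together and apart from the other line, and Gstm5 in Mat-Lylu and 1 Nqo1 probe set in G reach down to the band.

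Glutathione synthesis and recycling held a single call. Of 8 tested probe sets of 4 genes, 1 was lower and 7 did not pass, with a median log2 difference of -0.07. The lower one was Gclc, the catalytic subunit of glutamate-cysteine ligase, at 1603 and 1741 in Mat-Lylu, against 2393 and 2298 in G (log2 difference -0.49, SE 0.09, adjusted p = 0.0046). Both Mat-Lylu arrays were under background, so the difference is at least 1.12-fold, and with signals floored at background the call was lost (adjusted p = 0.48). Gclm, the modifier subunit, read, on S65555_at, 3859 and 3889 in Mat-Lylu, against 3594 and 3502 in G (log2 difference 0.13, SE 0.08, adjusted p = 0.27), and its second tested probe set gave a log2 difference of 0.24 (adjusted p = 0.083). Gsr, the reductase, had 3 probe sets between -0.22 and -0.03, and none passed. Gss, the synthetase, was the brightest of the class on L38615_g_at, at 7234 and 6785 in Mat-Lylu, against 7905 and 7225 in G (log2 difference -0.11). On L38615_at the 2 Mat-Lylu arrays were far apart, at 2636 and 4642, on either side of the G arrays at 3031 and 2828.

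Among glutathione peroxidases 2 of 7 tested probe sets were lower, 2 higher and 3 did not pass. Gpx1, the selenium enzyme of cytosol and mitochondria, accounted for both falls. X07365_s_at read 9272 and 9063 in Mat-Lylu, against 19645 and 18778 in G (2.09-fold lower, log2 difference -1.07, SE 0.09, adjusted p = 5.1e-05). X12367cds_s_at read 10460 and 9842 in Mat-Lylu, against 18606 and 17649 in G (1.78-fold lower, log2 difference -0.84, SE 0.09, adjusted p = 2.4e-04). The lines were far apart on both, and a further Gpx1 probe set was under background and untested.

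The rises among peroxidases were small. Gpx7, a peroxidase of the endoplasmic reticulum, read 8470 and 7315 in Mat-Lylu, against 6156 and 6058 in G (1.29-fold, log2 difference 0.37, SE 0.10, adjusted p = 0.021), and the call was lost without Mat-Lylu replicate 0 (0.14) or G replicate 1 (0.062). Gpx3, the secreted plasma form, read 6001 and 5845 in Mat-Lylu, against 4863 and 5105 in G (1.19-fold, log2 difference 0.25, SE 0.08, adjusted p = 0.048) and lost its call when any 1 array was left out (adjusted p from 0.077 to 0.18), with no filter (0.057) and with no intensity trend (0.059). Gpx4, which reduces peroxides within membrane lipids, was the brightest peroxidase, at 28011 and 25206 in Mat-Lylu, against 28429 and 25690 in G. The lines overlapped, and the log2 difference was -0.02 (SE 0.11). Gpx2 and Gpx5 did not pass either, at log2 differences of -0.13 and -0.15, and Gpx5, an epididymal form, was under background on all 4 arrays.

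Peroxiredoxins split by gene, with all 7 probe sets tested, 4 higher, 2 lower and 1 not passing. Prdx6, a peroxiredoxin that also acts on phospholipids, was higher on 3 of 3 probe sets. The brightest, rc_AA892041_at, read 16851 and 16614 in Mat-Lylu, against 9682 and 8979 in G (1.79-fold, log2 difference 0.84, SE 0.09, adjusted p = 2.1e-04). AF014009_at read 6795 and 8147 in Mat-Lylu, against 4361 and 3959 in G, and Y17295cds_s_at read 9594 and 12575 in Mat-Lylu, against 7042 and 4882 in G, with log2 differences of 0.84 and 0.90 (adjusted p = 6.6e-04 and 0.0070). The differences of the 3 probe sets lay within 1 SE of the least precise one, 0.19.

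Prdx3, the mitochondrial peroxiredoxin, was lower on both probe sets. It read, on rc_AA799650_at, 15129 and 13842 in Mat-Lylu, against 23427 and 22832 in G (1.60-fold lower, log2 difference -0.68, SE 0.10, adjusted p = 0.0011) and 12686 and 11469 in Mat-Lylu, against 20059 and 18687 in G on rc_AA799650_g_at (log2 difference -0.68, SE 0.10, adjusted p = 0.0011). These probe sets were built on the same sequence entry and share their source. Prdx2, a cytosolic form, read 31601 and 30046 in Mat-Lylu, against 23642 and 20177 in G (1.41-fold higher, log2 difference 0.50, SE 0.11, adjusted p = 0.012). The Prdx2 call was lost without Mat-Lylu replicate 0 (log2 difference 0.46) or replicate 1 (log2 difference 0.53). Prdx1, its close cytosolic relative, read 26411 and 24122 in Mat-Lylu, against 24542 and 22344 in G, overlapped between the lines and missed the threshold (log2 difference 0.11).

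Thioredoxin reductases, which recharge thioredoxin for most peroxiredoxins, gave 1 call on 4 probe sets. Txnrd1, the cytosolic form, read, on U63923_at, 7405 and 7507 in Mat-Lylu, against 9403 and 8714 in G (1.21-fold lower, log2 difference -0.28, SE 0.08, adjusted p = 0.038). That call was lost without either Mat-Lylu replicate or G replicate 0 (adjusted p from 0.14 to 0.15), with quantile normalization (0.068) and with cyclic loess scaling (0.060). The brighter Txnrd1 probe set read 12911 and 10938 in Mat-Lylu, against 17197 and 13073 in G, and missed the threshold (log2 difference -0.34, SE 0.15, adjusted p = 0.13). Neither probe set of Txnrd2, the mitochondrial form, passed, with log2 differences of 0.30 and -0.12.

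The secreted superoxide dismutase was higher in Mat-Lylu, while the intracellular ones and catalase were lower. Sod3, which binds to the cell surface and matrix, read, on Z24721_at, 32670 and 35916 in Mat-Lylu, against 11371 and 9167 in G (3.35-fold, log2 difference 1.74, SE 0.13, adjusted p = 2.5e-05). Its second probe set, X68041cds_s_at, read 10619 and 12232 in Mat-Lylu, against 3452 and 2609 in G (3.78-fold, log2 difference 1.92, SE 0.14, adjusted p = 2.6e-05). The lowest Mat-Lylu array was well above the highest G array on both.

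Sod1, the copper and zinc enzyme of the cytosol, was lower on 2 of 3 probe sets. M25157mRNA_i_at read 18539 and 14866 in Mat-Lylu, against 33426 and 29978 in G (1.91-fold lower, log2 difference -0.93, SE 0.13, adjusted p = 0.0010). M21060_s_at read 31422 and 28076 in Mat-Lylu, against 40009 and 48666 in G (1.49-fold lower, log2 difference -0.57, SE 0.13, adjusted p = 0.012), with its call lost without Mat-Lylu replicate 0 (0.064) or replicate 1 (0.18). The G arrays were the further apart of the 2 lines on M21060_s_at, and the higher of them was G replicate 1, the array with the highest maximum. The third probe set missed the threshold (log2 difference -0.29, adjusted p = 0.064).

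Sod2, the manganese enzyme of mitochondria, read 2190 and 1813 in Mat-Lylu, against 3371 and 2755 in G (1.52-fold lower, log2 difference -0.61, SE 0.13, adjusted p = 0.0085), and 1 Mat-Lylu array lay under background. Cat, the peroxisomal catalase, read, on rc_AA926149_g_at, 2678 and 2136 in Mat-Lylu, against 5734 and 3873 in G (1.96-fold lower, log2 difference -0.97, SE 0.19, adjusted p = 0.0047), and again 1 Mat-Lylu array lay under background. A second tested Cat probe set, M11670_at, was above background on 1 G array alone and gave a log2 difference of -0.30 (adjusted p = 0.40), and the remaining one was untested.

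Aldehyde dehydrogenases held the largest difference of all members beside 8 probe sets that did not pass. Of 11 tested probe sets of 9 genes, 2 were higher and 1 lower, with a median log2 difference of 0.07. Aldh3a1, which oxidises aromatic and medium-chain aldehydes and is abundant in cornea and in some rat liver tumours, read 23822 and 23905 in Mat-Lylu, against 4093 and 4176 in G (5.75-fold higher, log2 difference 2.52, SE 0.08, adjusted p = 3.0e-07). The 2 arrays of each line were nearly equal and the lines far apart. Its neighbour in the family Aldh3a2, which oxidises fatty aldehydes, read, on M73714_at, 5565 and 5006 in Mat-Lylu, against 3751 and 3414 in G (1.47-fold higher, log2 difference 0.56, SE 0.09, adjusted p = 0.0025). The brighter Aldh3a2 probe set, rc_AA996484_g_at, read 10551 and 11348 in Mat-Lylu, against 9858 and 9170 in G, and missed the threshold (log2 difference 0.20).

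Aldh2, the mitochondrial enzyme for acetaldehyde, was the one that was lower, at 6861 and 8763 in Mat-Lylu, against 12851 and 10876 in G (1.52-fold, log2 difference -0.61, SE 0.14, adjusted p = 0.010), and its call was lost without Mat-Lylu replicate 0 (adjusted p = 0.056). Aldh7a1, an enzyme of lysine breakdown, was the brightest of those that did not pass. It read, on S75019_g_at, 15354 and 12514 in Mat-Lylu, against 20063 and 16291 in G (log2 difference -0.38, SE 0.14, adjusted p = 0.072), and S75019_at missed the threshold narrowly at a log2 difference of -0.44 (adjusted p = 0.0503). The retinal dehydrogenases Aldh1a1 and Aldh1a2 read signals that overlapped between the lines, with log2 differences of 0.07 and 0.01. Aldh6a1 gave 0.14, and Aldh1l1 and Aldh5a1 were under background on all 4 arrays.

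Nqo1, which reduces quinones without forming radicals, was higher on both probe sets, and Ephx1, the microsomal epoxide hydrolase, was lower. For Nqo1, J02679_s_at read 27353 and 24411 in Mat-Lylu, against 11715 and 12439 in G (2.14-fold, log2 difference 1.10, SE 0.10, adjusted p = 1.0e-04). M58495mRNA_at read 5408 and 5410 in Mat-Lylu, against 2472 and 1778 in G (2.57-fold, log2 difference 1.36, SE 0.14, adjusted p = 2.2e-04). There a single G array lay above background. Ephx1 read 1922 and 1930 in Mat-Lylu, against 3728 and 3653 in G (1.91-fold lower, log2 difference -0.93, SE 0.08, adjusted p = 7.3e-05), and 1 Mat-Lylu array lay under background.

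**Figure D4:**
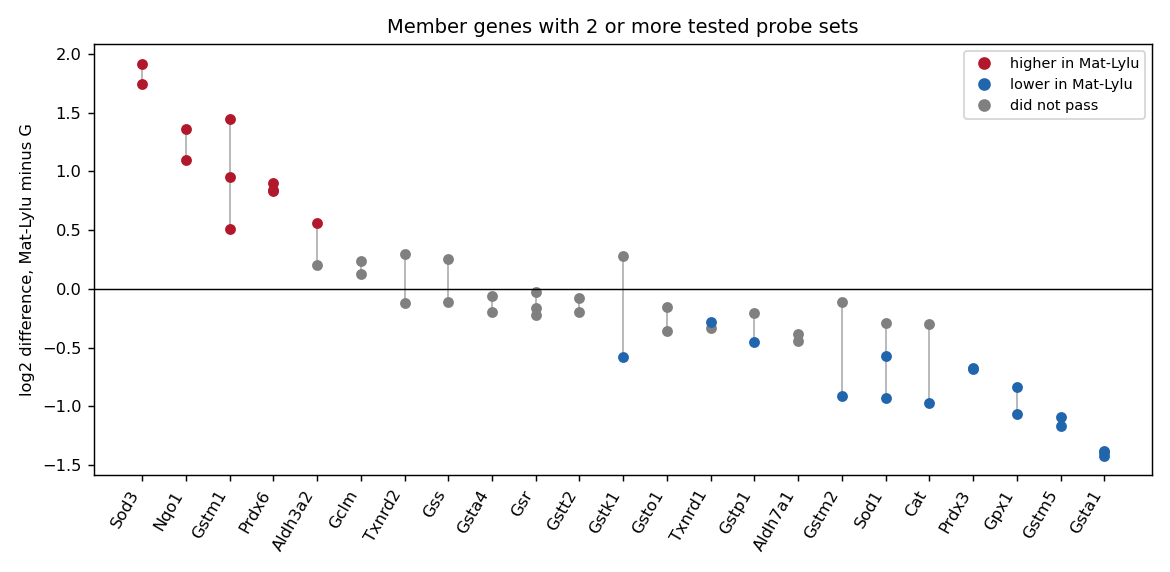
Log2 difference (Mat-Lylu minus G) of every tested probe set of the 23 member genes with 2 or more, 1 column per gene, coloured by outcome. Colours of opposite direction never share a column, while Gstm1, Gstm2, Cat and Sod1 show probe sets of 1 gene that differ in size. For Gstk1 the called probe set lies at -0.58 and the other, which did not pass, at 0.28.

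Genes beside these enzymes in the same pathways were also followed. A list of regulators, NADPH suppliers, carriers, reductases and metal-binding proteins gave 68 probe sets of 37 genes, of which 55 of 35 genes were tested. There 6 probe sets were higher, 19 lower and 30 did not pass (10.9% higher and 34.5% lower, against 13.9% and 20.3% of all tested probe sets), with a median log2 difference of -0.19. Selenop, the secreted selenium carrier, read 71.5 and 98.3 in Mat-Lylu, against 12873 and 11949 in G, at least 5.90-fold lower because both Mat-Lylu arrays were under background (adjusted p = 4.1e-08). The other Selenop probe set was under background on all 4 arrays and untested. Tkt, the transketolase of the pentose phosphate pathway, read, on rc_AI059508_s_at, 23319 and 25049 in Mat-Lylu, against 6088 and 4910 in G (4.41-fold higher, log2 difference 2.14, SE 0.12, adjusted p = 5.3e-06) and 3.10-fold higher on U09256_at.

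The other neighbours with the smallest p were lower. Akr7a2, an aldehyde reductase, read 6107 and 5789 in Mat-Lylu, against 15332 and 14142 in G (2.47-fold, log2 difference -1.31, SE 0.09, adjusted p = 1.8e-05), and its second probe set was 1.39-fold lower (adjusted p = 0.0031). Mt3, a metallothionein, read 8347 and 9037 in Mat-Lylu, against 17272 and 17288 in G (log2 difference -0.99, SE 0.09, adjusted p = 8.5e-05). Slc3a2, the heavy chain of the cystine transporter, was 2.37-fold lower on 1 probe set (log2 difference -1.24, SE 0.12, adjusted p = 1.1e-04) and 1.49-fold lower on the other, brighter one (adjusted p = 0.0028, and 0.057 without Mat-Lylu replicate 1). Txnip, an inhibitor of thioredoxin, was 2.02-fold lower on 1 of its 2 probe sets (adjusted p = 1.1e-04) and at -0.22 on the other, which did not pass. Sult1a1, a phenol sulfotransferase, was at least 1.47-fold lower, with both Mat-Lylu arrays under background.

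Nfe2l2 and some of its known targets are given as a choice made after their values were seen. The targets named here were taken from genes with a call, and they went both ways. Targets without a call are not listed here, so the share of targets with a call was not tested. Nfe2l2 read, on rc_AI177161_at, 4334 and 3806 in Mat-Lylu, against 4606 and 4534 in G, and did not pass on either probe set (log2 differences -0.17 and -0.15, adjusted p = 0.21 and 0.47). Hmox1, heme oxygenase, was lower on both probe sets, at 2590 and 2384 in Mat-Lylu, against 4685 and 4060 in G on J02722cds_at (log2 difference -0.81, SE 0.10, adjusted p = 4.9e-04) and 5497 and 5267 in Mat-Lylu, against 7041 and 6378 in G on rc_AI179610_at (log2 difference -0.32, SE 0.09, adjusted p = 0.027). The second call was lost without Mat-Lylu replicate 0 (0.064), Mat-Lylu replicate 1 (0.13) or G replicate 0 (0.12) and with quantile normalization (0.051). Me1, the malic enzyme that supplies NADPH, was lower on 4 of its 4 tested probe sets, with log2 differences from -0.57 to -0.31, and was under background in Mat-Lylu on 2 of them, whose calls were lost with signals floored at background (adjusted p = 0.76 and 0.56). Both of these calls were also lost without Mat-Lylu replicate 1. That of rc_AI171506_at was lost as well without Mat-Lylu replicate 0 or G replicate 0 and with median scaling. Higher in Mat-Lylu were Tkt and Nqo1, with the values above, and Taldo1, the transaldolase of the pentose phosphate pathway, which read 19347 and 14654 in Mat-Lylu, against 12647 and 11382 in G (log2 difference 0.49, SE 0.14, adjusted p = 0.030). Without Mat-Lylu replicate 0 the Taldo1 difference was 0.29 (adjusted p = 0.18), and its call was also lost without G replicate 1 (0.078). Idh1, a cytosolic isocitrate dehydrogenase that supplies NADPH, was also higher on its tested probe set, at 12260 and 10177 in Mat-Lylu, against 7218 and 5808 in G (log2 difference 0.79, SE 0.13, adjusted p = 0.0026).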

How the data were processed

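Total RNA of 2 Mat-Lylu and 2 G samples was hybridised to 4 oligonucleotide arrays, grouped here by line from their titles. The authors deposited linear signal intensities per probe set, made with MAS5 per the submitters' processing notes; no source used here gives the version, the scaling target or any filter. Gene names came from the platform annotation, and all 47 member genes matched the GRCr8 RefSeq table by gene identifier. The array's build is not given, so coordinates are those of the RefSeq promoter windows.

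The 59 control probe sets and the 25% of the other 8740 with the lowest mean signal (under 1525) were left out, and log2(signal + 16) of the remaining 6555 was fitted with limma 3.58.1 in R 4.3.3 (eBayes with an intensity trend, 2-sided, Benjamini-Hochberg). Differences are Mat-Lylu minus G with the SE of the fit. With 2 arrays against 2 an exact permutation test cannot go below p = 0.333, so the calls rest on the variance pooled over probe sets. A probe set under the background level on both arrays of a line has a bound there, computed with dim values raised to that level. The number of arrays limits the precision. The fit was tested on simulated data with the same noise for all probe sets and far fewer changed ones than were called here. That setting differs from these data, so it is no check of the calls.

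The members, lists and tests were chosen with earlier results of these data known. Values of every array are given for members past the threshold and the brightest probe set of each class; those of other members were chosen after their values were seen. The neighbours named are the 8 probe sets with the smallest p. The fit was repeated with a pseudocount of 1 or 64, no filter or a 50% one, quantile, median and cyclic loess scaling, a floor at background, no intensity trend, the replicate block, a minimum log2 difference of 1 and each array left out.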

Additional observations from a re-analysis of the deposited data

How the results depend on the processing

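Of the 39 called member probe sets, 26 kept their call in each of 14 alternatives, the test against a minimum log2 difference of 1 aside, 2 more (Ephx1 and Sod2) kept it wherever they were tested but fell under the 50% filter, and 11 lost it in at least 1; none changed direction. With that minimum difference, 4 member probe sets were higher and 1 lower, against 16 and 23, and 2 neighbouring probe sets were higher and 1 lower, against 6 and 19; the stricter null accounts for these counts by construction. Leaving out 1 array gave 14 to 17 members higher and 18 to 29 lower, and 5 to 7 neighbours higher and 13 to 21 lower; the lone array of a line is then assumed to vary like the other line. With the replicate number as a block, 16 members were higher and 26 lower, and 7 and 20 neighbours; same-numbered arrays deviated together at r = 0.16 over probe sets, but with 2 pairs this does not show a pairing, and the titles share only a number. Quantile normalization gave 16 members higher and 23 lower, and moved all tested probe sets to 1139 higher and 1181 lower, against 908 and 1330. Medians of all tested probe sets stayed between -0.04 and 0.03 on the log2 scale. Differences near the background level, such as those of Gclc, Sod2, Cat and Ephx1 in Mat-Lylu, are limited by signal over background.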
